A study of Mus musculus with 24 samples.

Results

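The genes described here belong to the oligoadenylate synthetase (OAS) family, and they are not all of its members that the MC38 lines express. They were taken by name, as Oas1a, Oas1g, Oas2, Oas3, Oasl1 and Oasl2, which are 6 of the 12 OAS genes and of the 52636 gene identifiers in the table. MC38 is a colorectal cancer cell line from the C57BL/6 mouse, and RNA was sequenced from 24 samples, 3 from each of 8 lines. The study engineered the cell surface sugars of MC38 and compared the edited lines with mock lines.

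MC38-WT was unedited and is the line grown without puromycin. All other lines were kept in puromycin. MC38-MOCK#1 received CRISPR-Cas9 with no target gene and is the reference for MC38-COSMC KO (target C1galt1c1, the gene of the chaperone COSMC; called MC38-Tnhigh in the study), MC38-CMAS KO (target Cmas, the enzyme that activates sialic acid) and MC38-DKO (both targets). MC38-MOCK#2 received CRISPR-dCas-VPR, a cleavage-dead Cas9 joined to a transcriptional activator, with no target gene. It is the reference for MC38-FUT9 and for the line labelled MC38-FUT4, whose labels name fucosyltransferase genes as targets for overexpression. MC38-COSMC KO was sorted in bulk, in repeated rounds, for cells that bound the lectin HPA, while the selection of the other lines is not given in the sources used here. Each edit is represented by 1 line, so the edit and the history of that line cannot be told apart. Samples 1 to 3 were of passage 7, 8 and 9 in MC38-WT, of passage 4, 5 and 6 in MC38-MOCK#1, MC38-COSMC KO, MC38-CMAS KO and MC38-DKO, and of passage 6, 7 and 8 in MC38-MOCK#2 and MC38-FUT9. In the line labelled MC38-FUT4, samples 1 and 3 were of passage 7 and sample 2 of passage 8. For the lines of the article, the study states independent passages harvested at separate times. It gives passages 4 to 6 for them, while the labels of MC38-WT give 7 to 9. The study says nothing on this for the other lines, whose labels give each sample its own passage, except samples 1 and 3 of the line labelled MC38-FUT4. For that pair the spread may be technical only. Elsewhere p-values measure the spread between passages of 1 line.

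Oligoadenylate synthetases bind double-stranded RNA in the cytosol and then join ATP into short oligoadenylates with 2'-5' bonds, a second messenger of antiviral defence known as 2-5A. The synthetase genes are textbook interferon-stimulated genes, turned on when the transcription factor complex ISGF3, which holds Irf9, binds interferon-stimulated response elements in their promoters. Oas1a, Oas1g, Oas2 and Oas3 are synthetases built from different numbers of the same catalytic unit. Oasl1 and Oasl2 carry ubiquitin-like domains, and Oasl1 has no synthetase activity and is known to hold back translation of Irf7 mRNA.

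In the annotation of GRCm38, Oas2, Oas3, Oas1g and Oas1a all lie on the minus strand of chromosome 5, in a block of 10 OAS genes from 120730333 to 120921652. Oas2 (ENSMUSG00000032690) spans 120730333 to 120749853, Oas3 (ENSMUSG00000032661) 120753098 to 120777661, Oas1g (ENSMUSG00000066861) 120876142 to 120887613 and Oas1a (ENSMUSG00000052776) 120896256 to 120907521. On the plus strand of the same chromosome lie Oasl2 (ENSMUSG00000029561), from 114896936 to 114912234, and Oasl1 (ENSMUSG00000041827), from 114923240 to 114937915.

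The promoters of 5 members were available from RefSeq (GRCm38.p6), with no window for Oas2. Because the members moved together across samples, the 90 bases before the start of each are shown, 5' to 3' on the strand of the gene, with capitals for the motif GAAANNGAAA, part of the interferon-stimulated response element.
Oas1a, chr5:120907526-120907615, minus strand: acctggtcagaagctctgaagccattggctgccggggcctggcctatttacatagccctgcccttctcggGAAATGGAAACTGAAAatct
Oas1g, chr5:120887614-120887703, minus strand: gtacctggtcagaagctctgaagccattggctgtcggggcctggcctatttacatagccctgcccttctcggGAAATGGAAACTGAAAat
Oas3, chr5:120777660-120777749, minus strand: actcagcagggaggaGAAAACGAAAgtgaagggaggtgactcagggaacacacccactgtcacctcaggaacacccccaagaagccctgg
Oasl1, chr5:114923150-114923239, plus strand: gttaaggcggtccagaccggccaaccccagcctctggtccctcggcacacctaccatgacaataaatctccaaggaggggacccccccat
Oasl2, chr5:114896844-114896933, plus strand: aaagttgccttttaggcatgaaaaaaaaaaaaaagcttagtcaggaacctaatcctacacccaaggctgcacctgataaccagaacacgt

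The motif was searched on both strands of windows of 300 bases, 250 before and 50 after the start. It stood in 3 of the 5 windows, and 3.44% of 32851 windows in RefSeq hold it. Oas1a held 2 overlapping copies between 20 and 5 bases before the start, Oas1g held 2 overlapping copies between 18 and 3 bases before it, and Oas3 held 1 copy between 75 and 66 bases before it. In Oasl1 and Oasl2 these letters were not in the window. The printed stretches of Oas1a and Oas1g were identical at 87 of 92 aligned positions, or 94.6%. The transcripts of this pair are also close: 57.6% of the stretches of 50 bases in Oas1a, the read length, occurred in Oas1g as well, and 45.2% of those in Oas1g occurred in Oas1a. How such reads were divided between both genes is uncertain, so their agreement is not that of separate measurements. For the other 4 members, at most 0.52% of stretches occurred in any other gene.

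Values are normalized counts, which are read counts that the authors scaled by 1 factor for each library and rounded. Their totals ran from 10911849 to 12263307 per sample, and the depth behind them was estimated at 6760000 to 16230000 reads, so that 1 read amounts to 0.756 to 1.67 normalized counts. Fut9 RNA ran from 641 to 955 in MC38-FUT9, from 171 to 209 in the line labelled MC38-FUT4 and to at most 7 elsewhere, whereas Fut4 RNA was at most 1 in every sample, against the label of that line. Cmas ran from 93 to 142 in MC38-CMAS KO and MC38-DKO and from 272 upwards elsewhere. C1galt1c1 was lower in MC38-COSMC KO than in MC38-MOCK#1 (log2 fold change -0.73, adjusted p = 0.0128, limma), and was not called in MC38-DKO (-0.38, adjusted p = 0.459). All 6 leukocyte markers were at 11 or below in every sample, with summed levels of 0 to 15 and Cd3e at 0 throughout. Of 8 markers of colon epithelium, 7 were at 11 or below in every sample, among them Epcam and Cdx2. Vim, a mesenchymal marker, ran from 19787 to 33315. These 7 markers thus did not reflect the labelled tissue, and the origin of the cells was not tested. Krt20 was the exception, at 263 to 468 in the line labelled MC38-FUT4, at 30 to 44 in MC38-CMAS KO and at 6 or below elsewhere.

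Oas1a, a synthetase of the smallest class, was at 53, 353 and 140 normalized counts in samples 1 to 3 of MC38-WT, at 152, 159 and 369 in MC38-MOCK#1, and at 89, 120 and 448 in MC38-MOCK#2. It was at 89, 36 and 30 in MC38-COSMC KO, at 61, 22 and 25 in MC38-CMAS KO, and at 135, 80 and 67 in MC38-DKO. In the line labelled MC38-FUT4 it was at 166, 37 and 167, and in MC38-FUT9 at 5, 2 and 5. The unedited and mock lines held the highest samples and MC38-FUT9 lay below all other samples, the lowest of which was at 22.

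By line mean, Oas1a ran in the order MC38-MOCK#1, MC38-MOCK#2, MC38-WT, the line labelled MC38-FUT4, MC38-DKO, MC38-COSMC KO, MC38-CMAS KO and MC38-FUT9, from 227 ± 123 down to 4.0 ± 1.73 normalized counts (mean ± SD, n = 3). Each line overlapped with the next one in this order except MC38-CMAS KO, at 36.0 ± 21.7, and MC38-FUT9.

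Oas1g was at 17, 234 and 100 normalized counts in MC38-WT, at 106, 89 and 274 in MC38-MOCK#1, and at 72, 49 and 312 in MC38-MOCK#2. In the knockout lines it was at 54, 28 and 22 (MC38-COSMC KO), 39, 17 and 19 (MC38-CMAS KO), and 132, 58 and 59 (MC38-DKO). The line labelled MC38-FUT4 gave 143, 22 and 111, and MC38-FUT9 gave 2, 2 and 3. Its order of lines was that of Oas1a, and here MC38-DKO (83.0 ± 42.4) did not overlap with MC38-COSMC KO (34.7 ± 17.0), nor MC38-CMAS KO (25.0 ± 12.2) with MC38-FUT9 (2.33 ± 0.577).

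Oas3, the largest synthetase and the one with the highest affinity for long double-stranded RNA, was at 30, 549 and 164 normalized counts in MC38-WT, at 182, 159 and 483 in MC38-MOCK#1, and at 110, 79 and 716 in MC38-MOCK#2. Its values were 73, 36 and 32 in MC38-COSMC KO, 61, 43 and 34 in MC38-CMAS KO, and 223, 92 and 58 in MC38-DKO. In the line labelled MC38-FUT4 they were 156, 9 and 131, and in MC38-FUT9 they were 5, 6 and 3. MC38-MOCK#2 (302 ± 359), MC38-MOCK#1 (275 ± 181) and MC38-WT (248 ± 269) led the order, with SDs above the mean in MC38-MOCK#2 and MC38-WT. Again only MC38-FUT9 (4.67 ± 1.53) failed to overlap with its neighbour.

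Oas2 had the lowest level of the 6 members. It was at 1, 76 and 7 normalized counts in MC38-WT, at 9, 10 and 28 in MC38-MOCK#1, at 10, 8 and 221 in MC38-MOCK#2, and at 12, 4 and 17 in the line labelled MC38-FUT4. In MC38-COSMC KO, MC38-CMAS KO, MC38-DKO and MC38-FUT9 all values but 1 were at or below 6, the exception being sample 1 of MC38-DKO at 17. In MC38-FUT9 it was listed at 0 in samples 1 and 2 and at 2 in sample 3, which overlapped with MC38-CMAS KO at 5, 1 and 1. At the depth of these libraries, levels of Oas2 this low rest on a handful of reads.

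Oasl1, the repressor of Irf7 translation, followed another order. It was at 446, 1509 and 955 normalized counts in MC38-WT, at 212, 303 and 870 in MC38-MOCK#1, and at 276, 256 and 664 in MC38-MOCK#2. It reached 1011, 498 and 209 in MC38-CMAS KO, against 181, 87 and 45 in MC38-COSMC KO and 401, 198 and 168 in MC38-DKO. The line labelled MC38-FUT4 gave 941, 266 and 964, and MC38-FUT9 gave 13, 11 and 25. MC38-CMAS KO thus came at rank 3 of 8 lines (573 ± 406), where it was at rank 7 for the other OAS members, and every sample of MC38-CMAS KO lay above every sample of MC38-COSMC KO, a difference that was not tested.

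Oasl2, which like the synthetases can make 2-5A, was at 135, 1424 and 627 normalized counts in MC38-WT, at 287, 294 and 986 in MC38-MOCK#1, and at 322, 226 and 1856 in MC38-MOCK#2. The knockout lines were at 337, 258 and 224 (MC38-COSMC KO), 386, 187 and 156 (MC38-CMAS KO), and 492, 211 and 196 (MC38-DKO). The line labelled MC38-FUT4 stood at 711, 146 and 775, and MC38-FUT9 at 15, 8 and 26. Apart from MC38-FUT9 (16.3 ± 9.07), each line overlapped with its neighbours in the order.

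**Figure D1:**
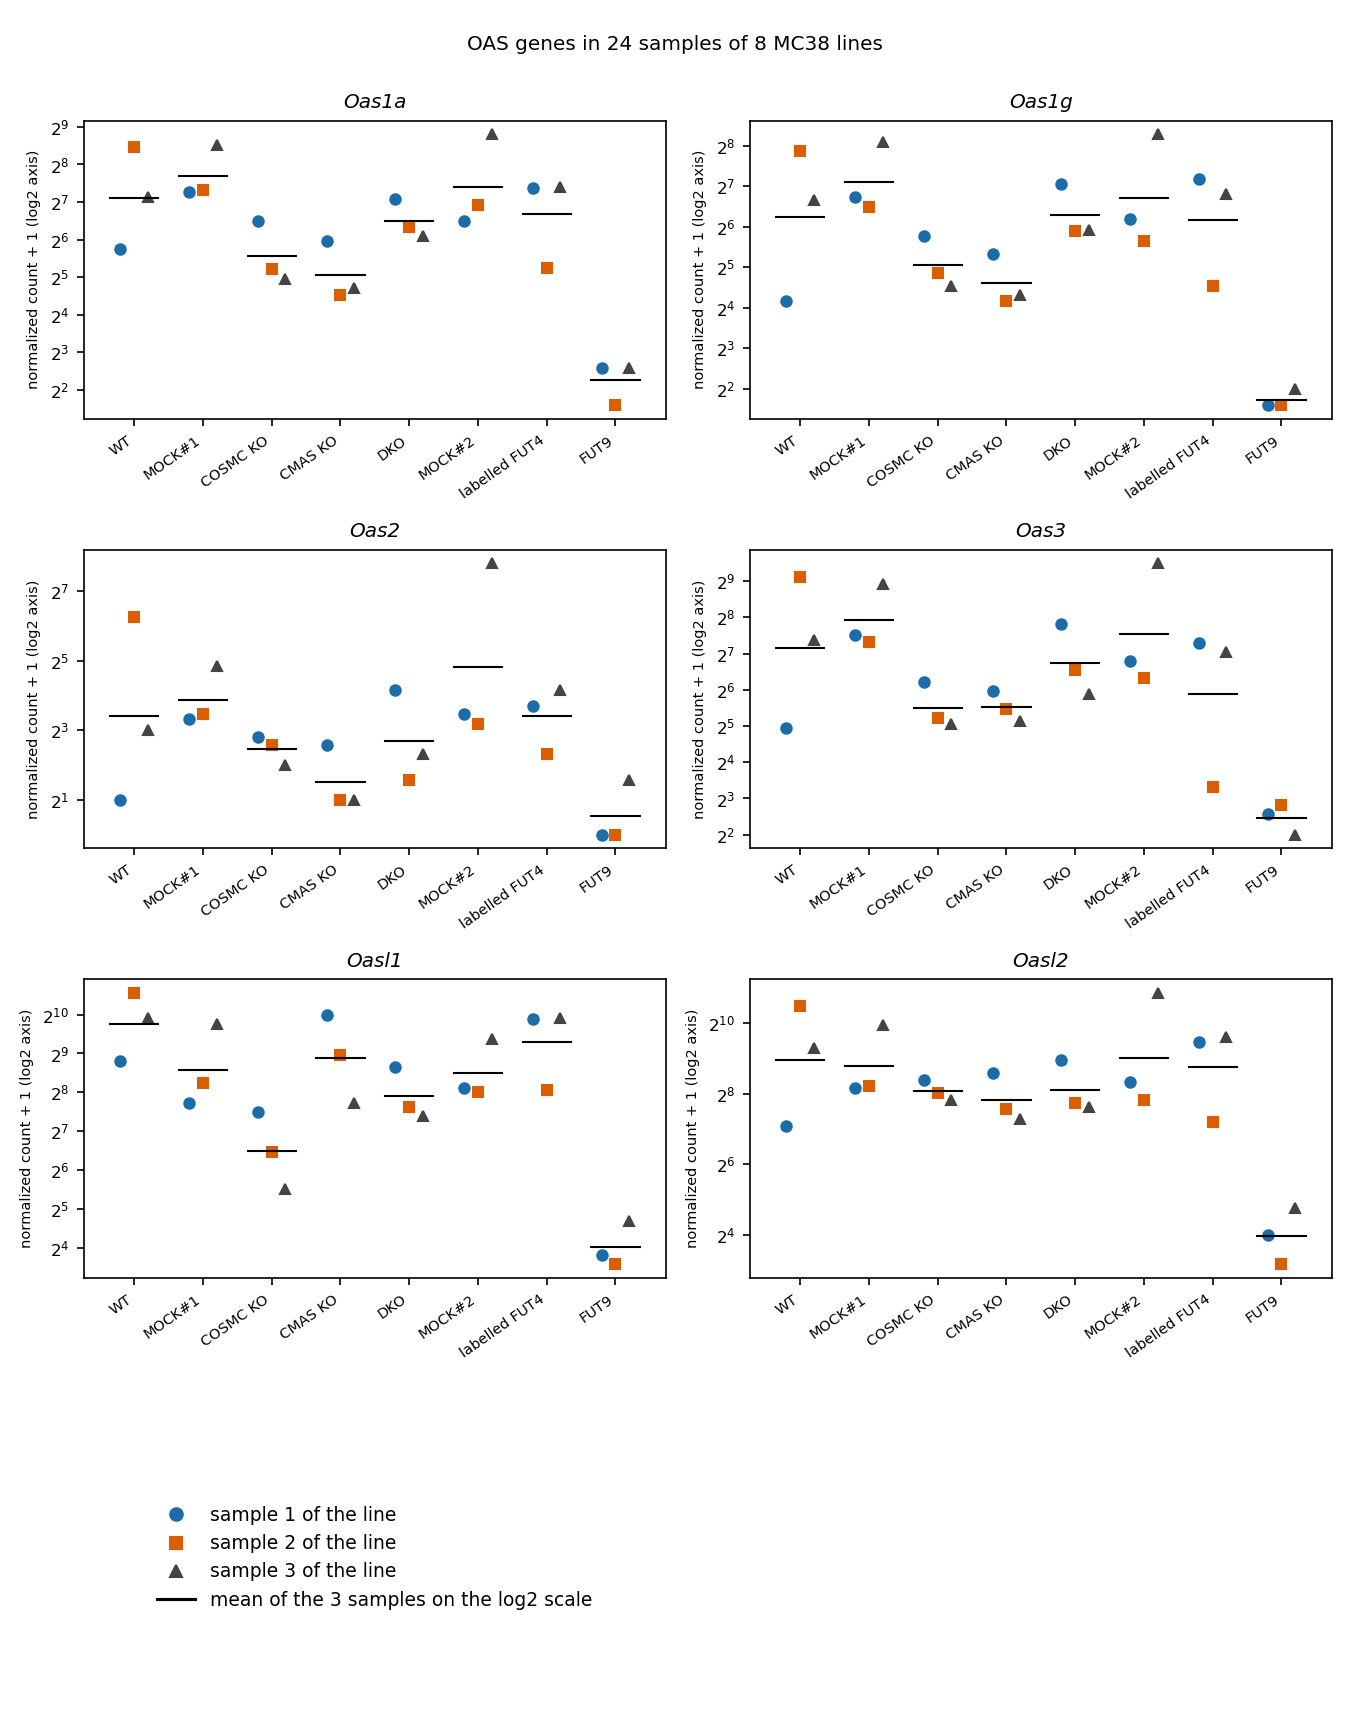
Normalized count plus 1 (log2 axis, a scale of its own for each gene) of Oas1a, Oas1g, Oas2, Oas3, Oasl1 and Oasl2 in the 8 lines on the x axis, where points are the 3 samples of a line and bars the mean of the 3 on the log2 scale. For Oas1a, Oas1g, Oas3, Oasl1 and Oasl2, all samples of MC38-FUT9 lie below those of the other lines.

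Levels of different genes were compared only per length, as normalized counts per kilobase of exons. On that scale the median over 24 samples was 104 for Oasl1, 44.8 for Oas1a, 42.8 for Oasl2, 23.9 for Oas1g, 10.8 for Oas3 and 1.24 for Oas2. Oasl1, the member without synthetase activity, had the highest line mean per kilobase except in MC38-COSMC KO, where Oasl2 was at 42.8 and Oasl1 at 40.0. In sample 3 of MC38-MOCK#2, Oasl2 (291) was also above Oasl1 (255).

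Within a line, the members rose and fell together from sample to sample. The family level, here the mean of log2(normalized count + 1) over the 6 OAS members, was highest in sample 3 of MC38-MOCK#2 (9.1), then in sample 2 of MC38-WT (8.79) and sample 3 of MC38-MOCK#1 (8.35). The sample with the highest family level in its line held the highest value of a member in 44 of 48 combinations of member and line, and the sample with the lowest level held the lowest value in 40 of 48. That is a description, since the members themselves make up the family level.

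Pearson's r between pairs of OAS members over 24 samples had a median of 0.869 (range 0.657 to 0.982, 15 pairs). With line means subtracted it was 0.901 (0.772 to 0.963). These points share libraries and their scaling, and reads are partly shared by Oas1a and Oas1g.

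The SD within lines on the log2 scale ran from 0.91 (Oasl1) to 1.54 (Oas2), against a median of 0.16 over 13515 genes. Each member thus varied more between samples of 1 line than about 97.1% of genes or more. Without MC38-FUT9, the line accounted for 18.1% (Oasl2) to 61.4% (Oasl1) of the sum of squares of a member, against a median of 59.9% over all genes. The sample of highest family level was number 1 in 3 lines, number 2 in 1 and number 3 in 4, so it was not tied to a sample number. In MC38-MOCK#1, MC38-MOCK#2 and MC38-FUT9 it was the sample of the latest passage and in MC38-COSMC KO, MC38-CMAS KO and MC38-DKO that of the earliest, and the part of passage was not tested.

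**Figure D2:**
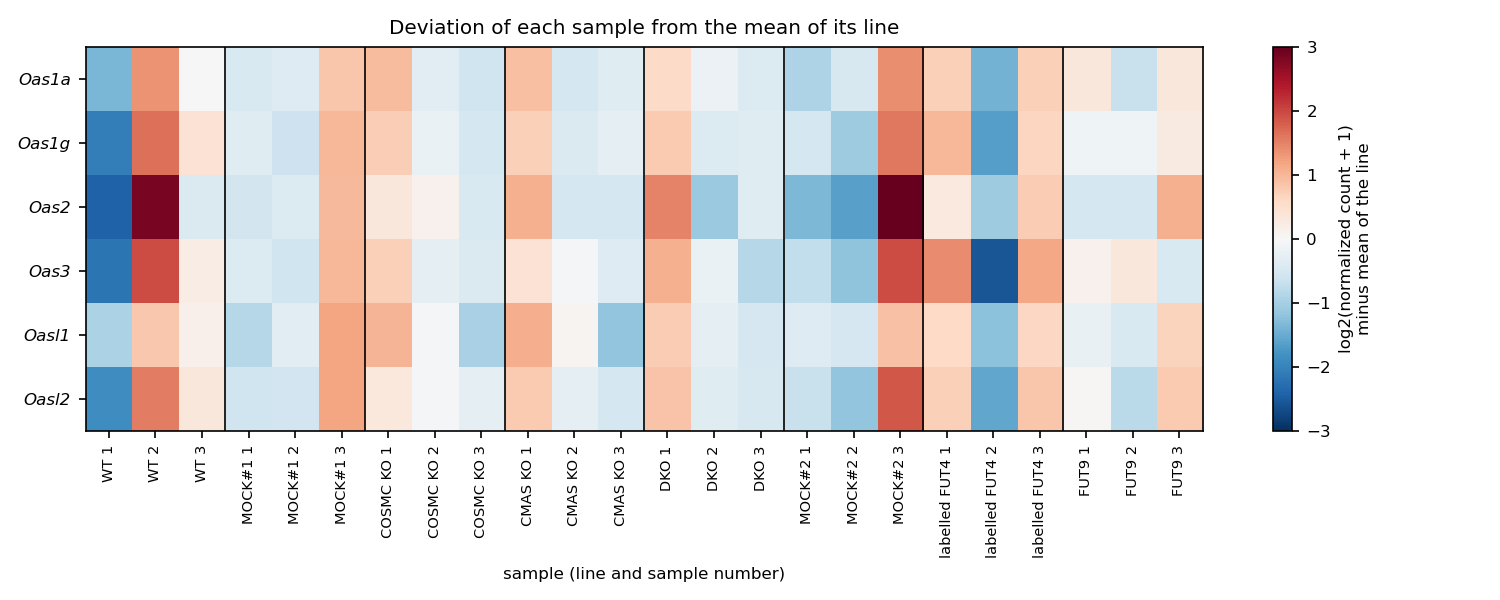
Deviation of log2(normalized count + 1) from the mean of the line for each member (rows) in the 24 samples (columns, 3 of each line between black lines), red above and blue below the mean. Columns are mostly of 1 colour, as in sample 3 of MC38-MOCK#2 and sample 2 of MC38-WT, where all 6 members lay above the mean of their line.

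One step of the study was to ask if cells with more truncated O-glycans differ in their RNA, which is the comparison of MC38-COSMC KO with MC38-MOCK#1. Oas1a, Oas1g and Oas3 fell in MC38-COSMC KO, and the other 3 members did not pass the test. All 6 members passed the filter on low values in every comparison. The fold changes are on the scale of log2(normalized count + 1) and come from limma across 22172 genes, with Benjamini-Hochberg adjustment. Oas3 fell 5.39-fold (log2 fold change -2.43, SE 0.47, adjusted p = 0.0193), Oas1a 4.44-fold (-2.15, SE 0.48, adjusted p = 0.0303) and Oas1g 4.16-fold (-2.06, SE 0.48, adjusted p = 0.0359). In bulk RNA, fewer cells that express a gene and less RNA per cell cannot be told apart.

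Of all genes tested, 5.39% were lower by the same rule, against 3 of 6 members. The study names Oas1a, Oas1g, Oas2, Oas3 and Oasl1 from its own test (edgeR) on these samples. The count is therefore not independent evidence of direction. Oas2 and Oasl1, which the study lists as differentially expressed, were not called here, so both tests differ for these genes. The list of the study also left out most genes that differed between its unedited and mock lines. Oasl1 had a log2 fold change of -2.09 (adjusted p = 0.0757) and Oas2 of -1.42 (adjusted p = 0.120), and in both the samples of the lines did not overlap. Oas1a, Oas1g and Oas3 did not overlap either, and 14.1% of all genes were lower without overlap. The samples overlapped for Oasl2 (-0.70, 95% interval -1.77 to 0.37).

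These calls rest on few samples. With 1 of the 6 samples left out, 0 or 1 member was called: Oas1a without sample 1 of MC38-COSMC KO (-2.62, adjusted p = 0.0415), Oas3 without sample 3 of MC38-MOCK#1 (-1.93, adjusted p = 0.0482), and none without any of the others. Without the trend between mean and variance in limma's fit, 0 of 6 members were called here and in MC38-CMAS KO. With all 8 lines in 1 fit, Oas1g (adjusted p = 0.0929) and Oas3 (adjusted p = 0.104) lost their calls here and Oas3 (adjusted p = 0.127) lost its call in MC38-CMAS KO, while Oasl1 gained one here (adjusted p = 0.0359), as it did with a mean of at least 10 (adjusted p = 0.043), by limma.

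MC38-CMAS KO, set against the same 3 samples of MC38-MOCK#1, gave calls for Oas1a, Oas1g and Oas3 as well. Oas1a fell 6.25-fold (log2 fold change -2.64, SE 0.48, adjusted p = 0.0271), Oas1g 5.69-fold (-2.51, SE 0.49, adjusted p = 0.0332) and Oas3 5.29-fold (-2.40, SE 0.44, adjusted p = 0.0271), by limma. That is 3 of 6 members, where 2.73% of all genes were lower. Since both comparisons share their controls, the likeness of their calls is no separate evidence.

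Oas2 missed the threshold in MC38-CMAS KO (-2.35, adjusted p = 0.0789). Samples did not overlap for Oas1a, Oas1g, Oas3 and Oas2, 4 of 6 members, where 12.5% of all genes were lower without overlap. For Oasl1, the interval covered changes in either direction (0.30, 95% interval -1.32 to 1.92), as it did for Oasl2 (-0.96, -2.24 to 0.33). With 1 sample left out, at most 1 member was called: Oas3 without sample 3 of MC38-MOCK#1 (-1.90, adjusted p = 0.0409), and none without any of the other 5 samples.

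In MC38-DKO against MC38-MOCK#1, 0 of 6 members were called by limma, where 0.0920% of all genes were, and 1 member, Oas1a, had an unadjusted p below 0.05, as did 7.51% of all genes. Oas1a had a log2 fold change of -1.20 (95% interval -2.04 to -0.36, adjusted p = 0.437) with no overlap of samples, where 5.91% of all genes were lower without overlap. Oas3 had -1.18 (-2.38 to 0.03) and Oas1g -0.83 (-1.86 to 0.20).

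MC38-DKO against MC38-CMAS KO gave higher estimates for Oas1g (1.68, adjusted p = 0.0522), Oas1a (1.45, adjusted p = 0.0823), Oas3 (1.23, adjusted p = 0.162) and Oas2 (1.16, adjusted p = 0.426), none of them called by limma, where 6.93% of all genes were. Oas1a, Oas1g and Oas3 had an unadjusted p below 0.05, 3 of 6 members, as did 21.4% of all genes. With a block for the sample number, which is also the passage in both lines, all 6 members had one, as did 5547 of 21858 genes. Oas1g was called in that fit (adjusted p = 0.038, limma). Oas1a and Oas1g did not overlap, which held for 24.5% of all genes, while Oasl1 had an estimate in the other direction (-0.99, adjusted p = 0.346).

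An interaction test asked whether the difference between lines with and without the COSMC label differed by the CMAS label. It covered the 12 samples of MC38-MOCK#1, MC38-COSMC KO, MC38-CMAS KO and MC38-DKO. A positive value means that MC38-DKO minus MC38-CMAS KO lay above MC38-COSMC KO minus MC38-MOCK#1. Mean C1galt1c1 RNA was 182 normalized counts in MC38-DKO and 183 in MC38-CMAS KO. It was 144 in MC38-COSMC KO and 238 in MC38-MOCK#1, and the part of this in the interaction was not tested. Oas1g (3.73, SE 0.67, adjusted p = 0.00129), Oas1a (3.60, SE 0.67, adjusted p = 0.00169) and Oas3 (3.66, SE 0.69, adjusted p = 0.00197) passed the limma test, 3 of 6 members, where 9.47% of all genes had a positive call. Oas2 (2.58, adjusted p = 0.0835), Oasl1 (1.1, adjusted p = 0.448) and Oasl2 (0.98, adjusted p = 0.368) did not pass.

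The interaction calls of Oas1a, Oas1g and Oas3 held with any 1 of the 12 samples left out, with values of 3.13 to 4.1 and adjusted p of 0.00105 to 0.0134. With all 8 lines in 1 fit, however, Oas3 lost its call (3.66, adjusted p = 0.0653). Oas1a and Oas1g share sequence. Among other OAS genes, Oas1c was called in the same direction (1.91, adjusted p = 0.0138), and Oas1b was not (1.18, adjusted p = 0.0559).

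Markers of other cell types moved with these lines as well. Of 3 mesenchymal markers, Col1a1 (-3.81, adjusted p = 6.80e-06) and Col1a2 (-3.53, adjusted p = 0.00115) had interactions of the other sign by limma, with Col1a1 at 175 to 255 normalized counts in MC38-CMAS KO, at 20 to 34 in MC38-DKO, at 47 to 52 in MC38-COSMC KO and at 22 to 39 in MC38-MOCK#1. The summed level of the list, which is nearly all Vim, ran from 22463 to 28182 in MC38-MOCK#1, from 28074 to 29952 in MC38-COSMC KO, from 27640 to 31993 in MC38-CMAS KO and from 24540 to 33353 in MC38-DKO. None of the 3 was at 0 in any of these samples, and their part in the OAS values was not tested.

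Of 8 markers of colon epithelium, Krt20 (-4.29, adjusted p = 0.000862) and Vil1 (3.29, adjusted p = 0.00528) had an interaction by limma. Krt20 was at 0 to 2 normalized counts in MC38-MOCK#1, at 2 to 5 in MC38-COSMC KO, at 30 to 44 in MC38-CMAS KO and at 3 to 6 in MC38-DKO, and Vil1 at 6 or below in all of these. The summed level of the list ran from 2 to 10 in MC38-MOCK#1, was 9 in each sample of MC38-COSMC KO, and ran from 31 to 49 in MC38-CMAS KO and from 7 to 14 in MC38-DKO. In the single comparisons with MC38-MOCK#1, Krt20 (4.75, adjusted p = 0.00507), Col1a1 (2.94, adjusted p = 0.00267) and Col1a2 (1.77, adjusted p = 0.00592) were higher in MC38-CMAS KO, and Col1a2 (1.23, adjusted p = 0.0283) was higher in MC38-COSMC KO, by limma. The part of these genes in the OAS calls of both lines was not tested. None of the leukocyte or endothelial markers reported here was called in either comparison or in the interaction.

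**Figure D3:**
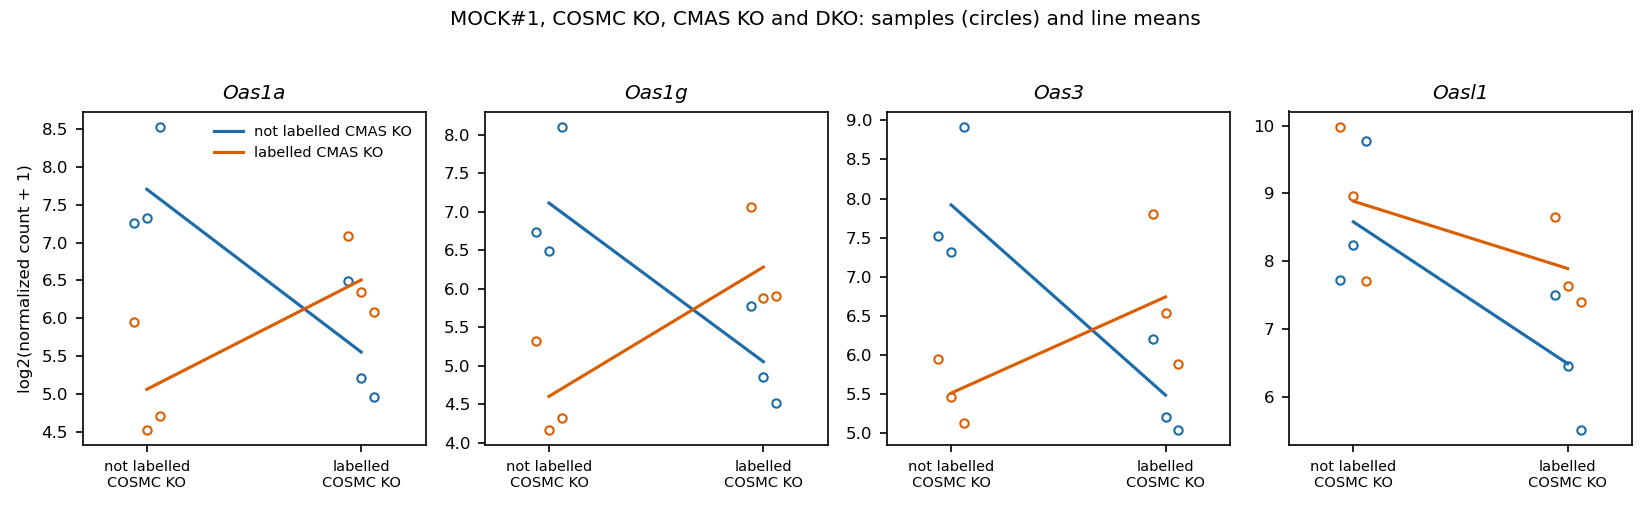
Values of log2(normalized count + 1) of Oas1a, Oas1g, Oas3 and Oasl1 (y axes do not start at 0) in the lines without (left) and with (right) the COSMC KO label; blue stands for lines not labelled CMAS KO and orange for those labelled CMAS KO, circles for samples and lines for the means of 3. The means cross for Oas1a, Oas1g and Oas3, and for Oasl1 both fall from left to right.

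No member was called between MC38-WT and MC38-MOCK#1 by limma (0 of 6, where 5.51% of all genes were), and 0 of 6 had an unadjusted p below 0.05 (20.7% of all genes). Sample 2 of MC38-WT was far above sample 1, so the intervals were wide, as for Oas2 (-0.46, 95% interval -3.34 to 2.42) and Oas3 (-0.78, -3.05 to 1.5). MC38-COSMC KO against MC38-WT gave 0 of 6 calls too, and 0.581% of all genes were called. Oasl1 lay on the threshold there (-3.26, 95% interval -4.51 to -2.01, adjusted p = 0.050, just above it) and its samples did not overlap, where 7.87% of all genes were lower without overlap. Together with Oas1a it had an unadjusted p below 0.05, as did 14.2% of all genes. Its call depends on the settings: Oasl1 was called with a pseudocount of 5, without a filter, with a mean of at least 10, with scaling by median of ratios and with all 8 lines in 1 fit.

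Between MC38-MOCK#2 and MC38-MOCK#1, 0 of 6 members were called by limma, where 11.3% of all genes were, and 0 of 6 had an unadjusted p below 0.05 (26.4% of all genes). The estimates ran from -0.40 (Oas1g) to 0.93 (Oas2), with intervals as wide as -1.98 to 3.84 for Oas2. In the line labelled MC38-FUT4 against MC38-MOCK#2, 0 of 6 members were called by limma, where 16.1% of all genes were, and 0 of 6 had an unadjusted p below 0.05 (29.3% of all genes). Krt20, at 263 to 468 in that line, was at 1 or below in MC38-MOCK#2. Cdh5 (2.78, adjusted p = 0.0324) and Ptprc (1.86, adjusted p = 0.0383) were also higher by limma, at levels of at most 16 and 5. Col1a1 lay lower, at 19 to 31 against 90 to 134, as did Col1a2, at 4 to 9 against 23 to 30. The part of these genes in the OAS values of the line labelled MC38-FUT4 was not tested. Sample 2 of that line was its lowest for every member and sample 3 of MC38-MOCK#2 was by far the highest of its line, and Oas3 (-1.65, 95% interval -4.57 to 1.27) and Oasl1 (0.79, -0.58 to 2.15) bracket the estimates.

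MC38-FUT9 held almost no RNA of the family. Against MC38-MOCK#2, all 6 members fell by limma, where 12% of the 21480 genes tested were lower by the same rule. Oas1a fell 35.6-fold (log2 fold change -5.16, SE 0.63, adjusted p = 0.00193), Oas3 33.6-fold (-5.07, SE 0.79, adjusted p = 0.00506), Oasl2 32.7-fold (-5.03, SE 0.80, adjusted p = 0.00544) and Oas1g 31.7-fold (-4.98, SE 0.66, adjusted p = 0.00264). Oasl1 fell 22.1-fold (-4.47, SE 0.44, adjusted p = 0.000926), with the smallest error of the 6.

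Oas2 (-4.28, SE 1.24, adjusted p = 0.0471) was close to the threshold of limma's test. In none of the 6 did the samples of both lines overlap, and 18.2% of all genes were lower without overlap. The median log2 fold change of the 6 members was -5.01, against 0.01 over all genes tested. With the added 1 in the logarithm, these values understate the change of members near 0.

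Leaving out sample 3 of MC38-MOCK#2, the highest of all samples, gave -4.45 for Oas1a, -4.19 for Oas1g, -4.11 for Oasl2, -4.09 for Oas3, -4.03 for Oasl1 and -2.79 for Oas2, all still called. Oas2 lost its call with each of the other 5 samples left out, at an adjusted p of up to 0.186. It also lost its call without the trend and with a pseudocount of 5. The libraries of MC38-FUT9 were estimated at 13530000 to 16230000 reads and those of MC38-MOCK#2 at 8190000 to 13300000 reads. No marker of colon epithelium, leukocytes, endothelium or mesenchyme was called in this comparison.

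Against the line labelled MC38-FUT4, in which Fut9 RNA was also present, all 6 members were lower in MC38-FUT9, where 15.8% of all genes were, by limma, and in none did the samples overlap (20.2% of all genes were lower without overlap). The log2 fold changes were -5.25 for Oasl1, -4.78 for Oasl2, -4.44 for Oas1g, -4.42 for Oas1a, -3.42 for Oas3 and -2.87 for Oas2, at adjusted p of 0.000609 (Oasl1) to 0.0427 (Oas3). This comparison shares the samples of MC38-FUT9 with the last one. Markers moved with it: by limma, Krt20 (-8.05, adjusted p = 9.09e-05), at 0 to 2 normalized counts in MC38-FUT9, was lower, as were Cdh5 (-3.12, adjusted p = 0.00312) and Vim (-0.38, adjusted p = 0.0110), and Col1a1 was higher (1.49, adjusted p = 0.00689). The summed level of the 8 epithelial markers was 2 to 6 in MC38-FUT9 and 266 to 476 in the line labelled MC38-FUT4, and the part of these genes in the OAS values was not tested. With 1 sample left out, 4 to 6 members were called: Oas2 and Oas3 lost their calls without sample 1 or 2 of MC38-FUT9 and without sample 1 or 3 of the line labelled MC38-FUT4, and Oas3 also without sample 3 of MC38-FUT9. Oas1a, Oas1g, Oasl1 and Oasl2 were called in all 6 of these fits. Oas2 lost its call with all 8 lines in 1 fit (adjusted p = 0.0599, limma) and Oas3 without the trend (adjusted p = 0.091).

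**Figure D4:**
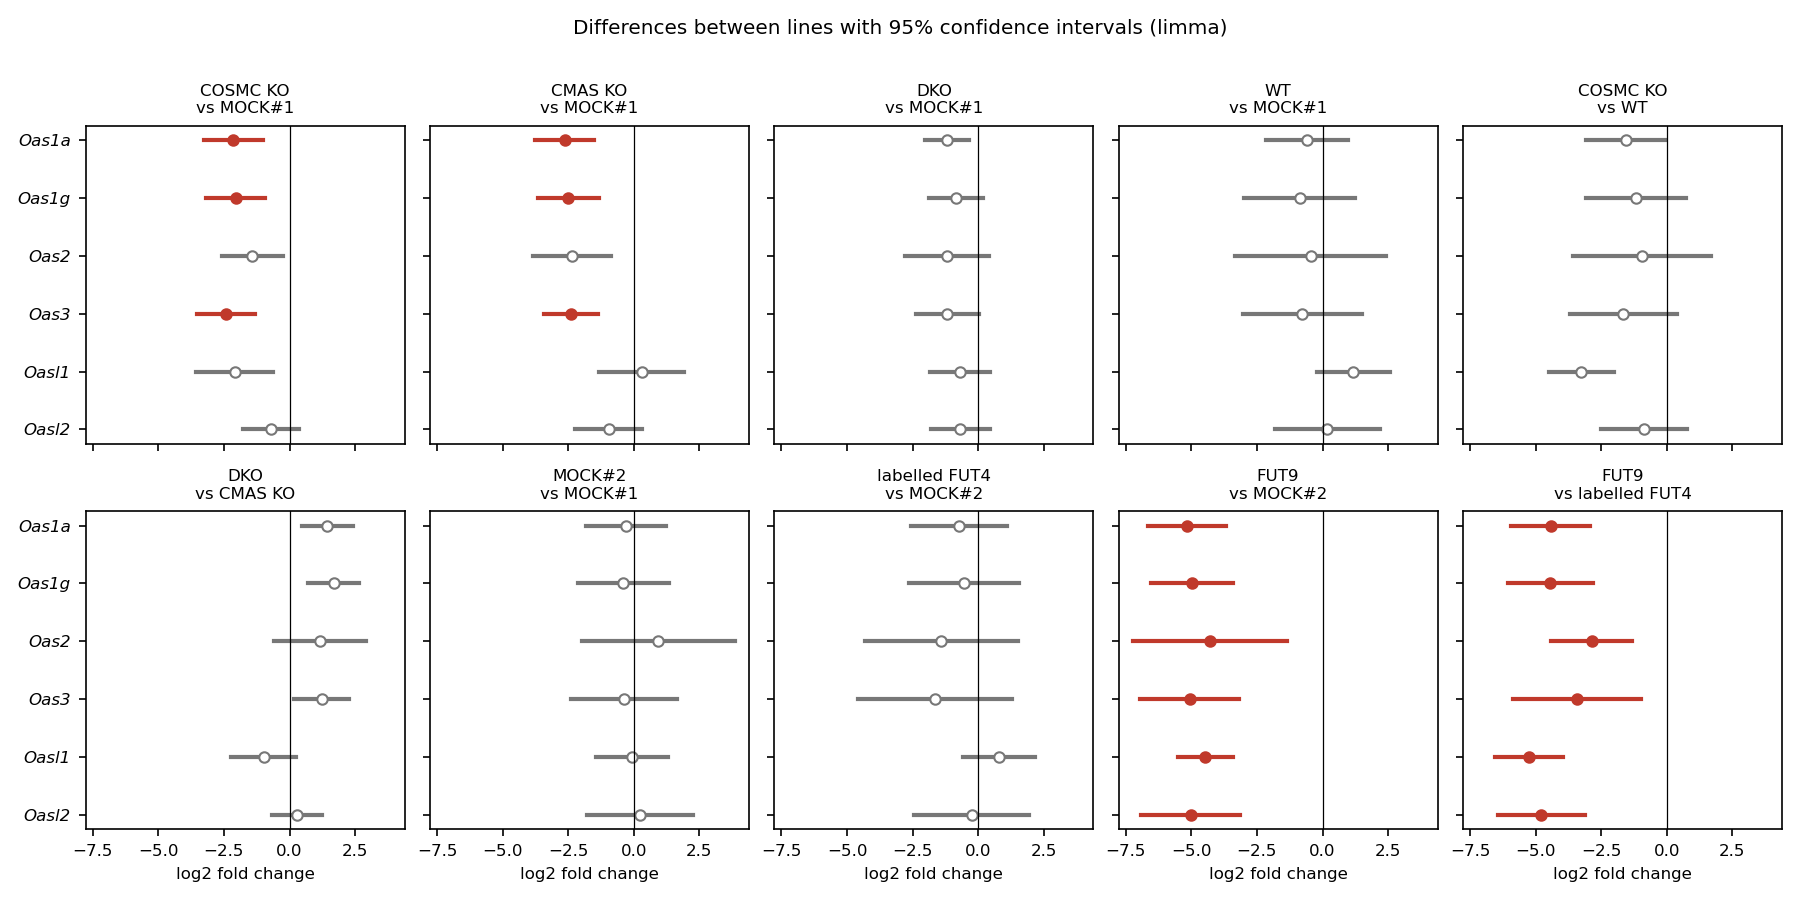
Log2 fold change (x axis, on the scale of log2(normalized count + 1)) of the 6 members in 10 comparisons of lines, with 95% confidence intervals as bars; filled red points had an adjusted p below 0.05 by limma. Calls are found in 4 comparisons, for Oas1a, Oas1g and Oas3 in MC38-COSMC KO and MC38-CMAS KO and for all 6 members in MC38-FUT9.

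Of the 6 OAS genes outside the members, Oas1c ran from 2 to 131 normalized counts and Oas1b from 7 to 104, and Oas1d, Oas1e, Oas1f and Oas1h were at 5 or below in every sample. Oas1b is a synthetase relative, and resistance to flaviviruses is known for some of its alleles only. The allele in MC38 was not examined, so its values do not speak to such resistance. Both Oas1b (-2.12, adjusted p = 0.0254) and Oas1c (-3.17, adjusted p = 0.0154) were lower in MC38-FUT9 than in MC38-MOCK#2 by limma. That is 2 of the 2 that passed the filter on low values, where 12% of all genes were lower. Against the line labelled MC38-FUT4, Oas1c was lower (-2.46, adjusted p = 0.0281, limma). Oas1b was not called there (-1.32, adjusted p = 0.221), and its samples overlapped. Oas1b was at 8 to 12 in MC38-FUT9 and as low as 7 in the line labelled MC38-FUT4. Oas1c was also lower in MC38-COSMC KO than in MC38-MOCK#1 (-1.20, adjusted p = 0.0450). Over 24 samples, r with the family level was 0.959 for Oas1c and 0.871 for Oas1b. Of the stretches of 50 bases in Oas1c, 15.1% occur in other genes, so its values are less certain.

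Genes listed under 2-5A turnover moved in the other direction in MC38-FUT9 against MC38-MOCK#2. Pde12, a phosphodiesterase that degrades 2-5A, was at 577, 626 and 575 against 388, 410 and 349 normalized counts (0.63, adjusted p = 0.00269, limma). Abce1, a ribosome recycling factor, was at 6865, 7230 and 5871 against 4891, 5070 and 4160 (0.50, adjusted p = 0.0178). For both genes the samples did not overlap, and their r with the family level was -0.64 and -0.76 over 24 samples. Akap7, which also holds a 2-5A phosphodiesterase domain, did not pass (0.25, adjusted p = 0.223), which makes 2 of 3 genes higher, where 12.1% of all genes were. Pde12 was also higher in the line labelled MC38-FUT4 than in MC38-MOCK#2 (0.54, adjusted p = 0.00961), where no OAS member was called.

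From the interferon receptor to ISGF3, 2 of 6 genes fell in MC38-FUT9 against MC38-MOCK#2 by limma, where 12% of all genes did: Stat2 (-1.64, adjusted p = 0.0233) and the kinase Tyk2 (-1.26, adjusted p = 0.00203). Irf9, the DNA-binding partner of Stat2, had -1.20 (adjusted p = 0.0935). The receptor chains Ifnar1 (0.22, adjusted p = 0.272) and Ifnar2 (0.03, adjusted p = 0.853) and the kinase Jak1 (0.17, adjusted p = 0.149) did not pass. Ifnar1 was at 484 to 527 normalized counts in MC38-FUT9 and at 319 to 525 in all other lines.

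Of 6 interferon regulatory factors and feedback genes, 4 fell in the same comparison by limma, against the same 12% of all genes. The log2 fold change was -4.76 for Usp18, which blocks the receptor (adjusted p = 0.0114), -4.26 for Irf7 (adjusted p = 0.0262), -3.94 for Isg15, a ubiquitin-like modifier (adjusted p = 0.0118), and -1.18 for Irf1 (adjusted p = 0.00137). Irf3, which is present before any interferon signal, had 0.02 (adjusted p = 0.848) and Socs1 0.20 (adjusted p = 0.637). Irf7 was at 2, 1 and 10 normalized counts in MC38-FUT9 and at 41, 30 and 352 in MC38-MOCK#2.

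Of 8 other sensors of double-stranded RNA and their partners, 4 fell by limma in MC38-FUT9 against MC38-MOCK#2, where 12% of all genes did. The log2 fold change was -3.60 for Ifih1, the gene of MDA5 (adjusted p = 0.00269), -3.03 for Ddx58, the gene of RIG-I (adjusted p = 0.00180), -3.78 for Zbp1 (adjusted p = 0.0479) and -0.34 for the adaptor Mavs (adjusted p = 0.0107). Ifih1 was at 12, 11 and 14 normalized counts in MC38-FUT9 and at 49 to 364 in the other 21 samples. Zbp1 was at 0 in each sample of MC38-FUT9 and at 3, 6 and 92 in MC38-MOCK#2, so the size of its change is uncertain. Eif2ak2 (PKR), the other well-known enzyme that double-stranded RNA turns on, had -0.47 (adjusted p = 0.290) and ran from 734 to 824 in MC38-FUT9, and Adar, which edits double-stranded RNA, had -0.37 (adjusted p = 0.255).

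**Figure D5:**
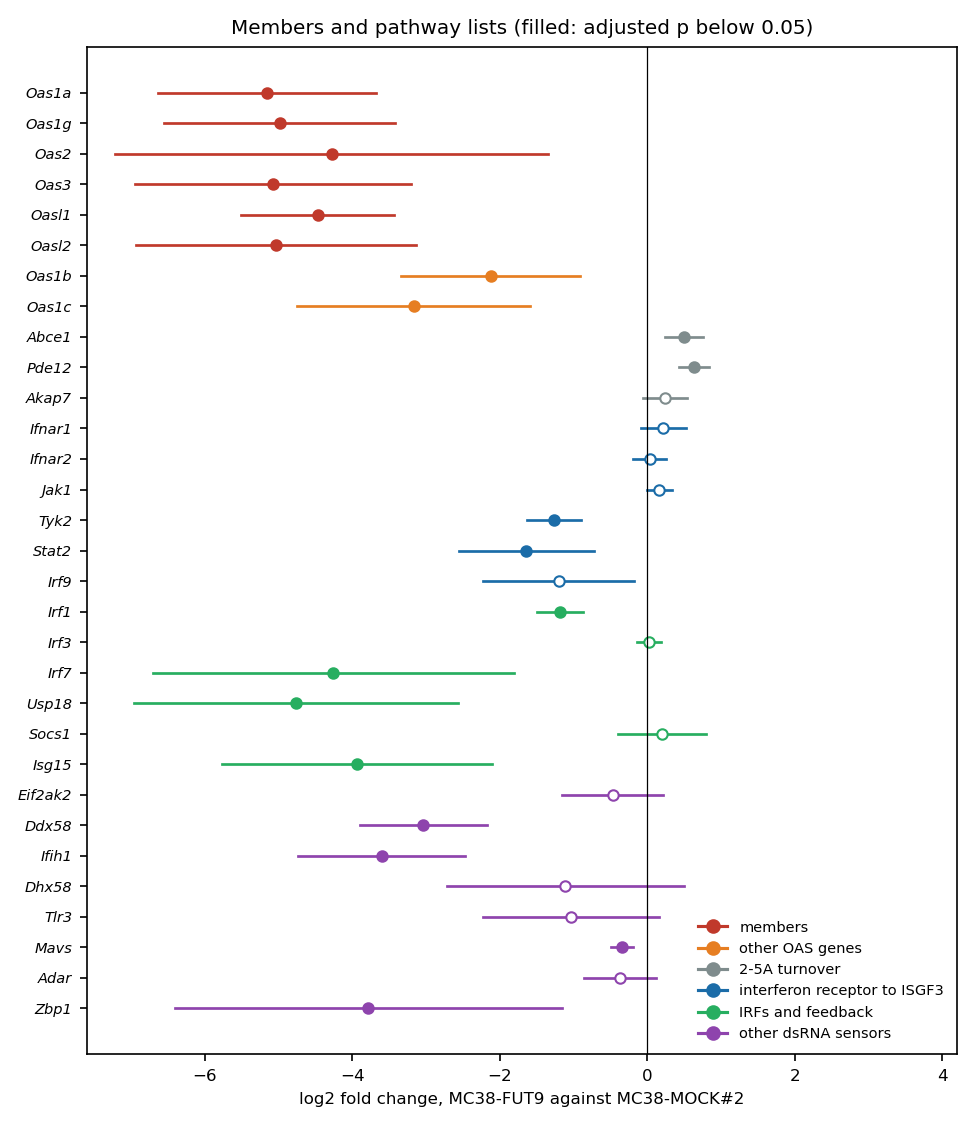
Log2 fold change (x axis) with 95% confidence intervals of members and of the genes of 5 pathway lists that passed the filter on low values, MC38-FUT9 against MC38-MOCK#2; filled points had an adjusted p below 0.05 by limma. The 6 OAS members lie between -5.16 and -4.28, while Ifnar1, Ifnar2, Jak1 and Irf3 lie within 0.22 of 0 and Abce1 and Pde12 above 0.

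The same lists were counted in the knockout lines. In MC38-COSMC KO against MC38-MOCK#1, where 5.39% of all genes were lower, by limma, 0 of 6 genes from the receptor to ISGF3 were called, 2 of 6 regulatory and feedback genes were lower (Usp18 -2.30, adjusted p = 0.0194; Irf1 -0.66, adjusted p = 0.00234), and 1 of 8 sensors was lower (Ifih1 -1.65, adjusted p = 0.0249). In MC38-CMAS KO, Irf1 was called (-0.64, adjusted p = 0.0106) and no other gene of these 3 lists, where 2.73% of all genes were lower. The interaction was positive by limma for Irf1 (1.22, adjusted p = 4.21e-05), Usp18 (2.59, adjusted p = 0.0129), Tyk2 (0.80, adjusted p = 0.0123), Ddx58 (1.5, adjusted p = 0.0394) and Ifih1 (1.91, adjusted p = 0.0372). Of all genes, 9.47% had a positive call. Among the regulatory and feedback genes, Isg15 (0.83, adjusted p = 0.631), Socs1 (0.13, adjusted p = 0.796), Irf3 (0.08, adjusted p = 0.754) and Irf7 (-0.16, adjusted p = 0.883) did not pass. Irf1 is a factor that can turn on OAS genes. It was at 515, 444 and 477 normalized counts in MC38-COSMC KO and at 545, 455 and 456 in MC38-CMAS KO. In MC38-DKO it was at 711, 630 and 814, and in MC38-MOCK#1 at 747, 761 and 761. Within MC38-MOCK#1, Oas1a ran from 152 to 369, Oas1g from 89 to 274 and Oas3 from 159 to 483. The part of Irf1 in the OAS values was not tested.

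Among 13509 genes with a mean of at least 10 normalized counts, the 10 most like the family level over 24 samples were Ddx58 (r = 0.987), Parp14 (0.986), Xaf1 (0.981), Gbp3 (0.980), Usp18 (0.978), Irgm1 (0.975), Ifi35 (0.973), Dtx3l (0.972), Nmi (0.967) and Parp9 (0.965). With line means subtracted, r was 0.925 (Nmi) to 0.986 (Irgm1), so the likeness was also one of samples within lines. Their lowest values were all in MC38-FUT9, where Usp18 was at 1 to 2, Xaf1 at 2 to 6 and Gbp3 at 1 to 4 normalized counts, but Dtx3l still at 189 to 205 and Parp9 at 144 to 207. Over 24 samples, Stat2 had an r of 0.903, whereas Irf3 had -0.11, Ifnar1 -0.12, Ifnar2 0.00 and Jak1 -0.25. With line means subtracted, r was 0.930 for Stat2, 0.865 for Ifnar1, 0.442 for Ifnar2, 0.185 for Jak1 and -0.07 for Irf3. Within lines, Ifnar1 thus rose and fell with the family level.

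RNA of interferons themselves was near 0. Of 21 interferon genes, looked up after the member values had been seen, 16 were at 0 in all 24 samples and no value was above 7 normalized counts. Ifnb1 was at 1 in 2 samples, both of MC38-WT, and at 0 in the other samples.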

How the data were processed

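RNA of 24 samples was measured with a stranded mRNA kit and single reads of 50 bases. The authors trimmed reads with Sickle, aligned them to GRCm38 with HISAT2 2.0.4, counted them per gene with featureCounts (Subread 1.5.0-p3), leaving out reads that overlap several genes, and scaled the counts in edgeR 3.18.1 for library size and TMM. Whether counting used the strand is not given in the sources used here. What was deposited is therefore a score, a scaled count rounded to a whole number, to which no count test was applied.

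The members and all gene lists were chosen with earlier results of these data known. Some genes of the pathway and marker lists are not reported here. Named genes were every member, the genes of the fixed lists (other OAS genes, 2-5A turnover, receptor to ISGF3, regulatory factors, sensors, targeted genes, cell type markers) and the 10 genes with the highest r with the family level. The interferon genes fall outside this rule, as does the choice of which list genes to discuss singly. limma 3.58.1 in R 4.3.3 (lmFit, eBayes with a trend) was fitted to log2(value + 1) of all genes, using the samples of the lines compared, without covariates. A gene was dropped if over 4 of 6 samples (10 of 12 for the interaction) were at 0, and an adjusted p below 0.05 called a gene. The fits were tested on simulated data. The depth of each library was derived from the steps between its low values. Promoters came from RefSeq, and transcripts and coordinates from the GRCm38 annotation. Python 3.11.15 with numpy 2.4.6, pandas 2.3.3, matplotlib 3.10.9 and Biopython 1.88 did the rest. Alternatives were the pseudocount (0.5 and 5), the filter, the scaling, a fit of all 8 lines, eBayes without the trend, a block for the replicate number, a log2 fold change above 1 as a further condition, and leaving out each sample. Samples 1 and 3 of the line labelled MC38-FUT4, both of passage 7, had the smallest difference of the 24 pairs within lines (mean chi-square per gene 4.66, against 6.79 to 32.7 for the others). As this was above counting error they were kept as 2 samples, which does not show that they came from separate cultures.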

Additional observations from a re-analysis of the deposited data

Results flagged for a closer look

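For 3 genes the difference between lines with and without the COSMC label itself differed by the CMAS label, by the limma test of the interaction over 12 samples. The log2 value was 3.60 for Oas1a, 3.73 for Oas1g and 3.66 for Oas3, which lost its call with all 8 lines in 1 fit (adjusted p = 0.0653). In each of the 3, the mean fell from MC38-MOCK#1 to MC38-COSMC KO and rose from MC38-CMAS KO to MC38-DKO, and for Oas1a and Oas1g the samples of neither pair of lines overlapped. Single comparisons of MC38-DKO with MC38-CMAS KO did not pass the threshold in the main fit, while Oas1g passed it under some alternatives, among them the replicate block. Each of the 4 labels is represented by 1 line.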

How the results depend on the processing

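The 3 calls each of MC38-COSMC KO and MC38-CMAS KO against MC38-MOCK#1 fell to 0 without a mean-variance trend and with the replicate block, and to between 0 and 1 with 1 sample left out. The cause was not tested beyond the smaller number of samples in the last of these. The count for MC38-COSMC KO against MC38-WT rose from 0 to 1 (Oasl1) with a pseudocount of 5, no filter, a mean of at least 10, median of ratios and all 8 lines in 1 fit. For MC38-DKO against MC38-CMAS KO it rose from 0 to 1 (Oas1g) with no filter, a mean of at least 10, median of ratios and the replicate block. With 1 sample left out, MC38-FUT9 kept 5 to 6 calls against MC38-MOCK#2 and 4 to 6 against the line labelled MC38-FUT4, and the interaction 3 to 4. With all 8 lines in 1 fit, Oas3 lost its interaction call (adjusted p = 0.0653).

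In the check of pairing, samples of the same number had r from -0.21 to 0.25 in their deviations from the line means. In 0 of 10 comparisons was every r above 0.1, and in 3 of 10 every sample was closest to its own number, so the numbers were not taken to pair the samples. The same number does stand for the same passage in MC38-MOCK#1 and the 3 knockout lines, and in MC38-MOCK#2 and MC38-FUT9. With the replicate block, calls over all genes went from 2563 to 4 (MC38-COSMC KO against MC38-MOCK#1), 1268 to 1 (MC38-CMAS KO), 20 to 0 (MC38-DKO), 1192 to 0 (MC38-WT), 127 to 0 (MC38-COSMC KO against MC38-WT), 1515 to 795 (MC38-DKO against MC38-CMAS KO), 3509 to 1756 (line labelled MC38-FUT4 against MC38-MOCK#2), 2454 to 2168 (mock lines), 5166 to 4963 (MC38-FUT9 against MC38-MOCK#2), 6922 to 6062 (MC38-FUT9 against the line labelled MC38-FUT4) and 4632 to 4696 (interaction). MC38-FUT9 kept 6 members against MC38-MOCK#2 and 5 against the line labelled MC38-FUT4 under the block, and the interaction 3.

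Some values that were not called changed sign when 1 sample was left out, and their log2 ranges follow. Between MC38-WT and MC38-MOCK#1 they were -1.26 to 0.10 for Oas1a, -1.70 to 0.16 for Oas1g, -1.88 to 0.75 for Oas2, -1.76 to 0.32 for Oas3 and -0.58 to 1.11 for Oasl2. Between the mock lines they were -0.998 to 0.16 (Oas1a), -1.20 to 0.13 (Oas1g), -0.57 to 1.75 (Oas2), -1.36 to 0.22 (Oas3), -0.52 to 0.51 (Oasl1) and -0.69 to 0.82 (Oasl2). For the line labelled MC38-FUT4 they were -1.07 to 0.28 (Oas1g), -2.23 to 0.083 (Oas2) and -0.84 to 0.68 (Oasl2). For MC38-COSMC KO against MC38-WT they were -2.17 to 0.46 (Oas2), and for MC38-DKO against MC38-CMAS KO -0.14 to 0.67 (Oasl2). Oasl1 ran from -0.24 to 0.90 in MC38-CMAS KO against MC38-MOCK#1. Of the values under the other alternatives, 624 kept their direction and side of the threshold, 11 became called and 21 lost their call. Low levels of Oas2 and, in MC38-FUT9, of all members rest on few reads, so the sizes of those fold changes are uncertain.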
